A study of Homo sapiens with 6 samples.

Results

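Ion channel genes were examined in BT549 cells, a cell line from a basal-like breast cancer, after treatment with the FOXO1 inhibitor AS1842856. The genes were taken from the count table by the symbol families CACN (voltage-gated calcium channels), SCN (voltage-gated sodium channels) and KCN (potassium channels), which gave 127 of the 58735 genes. These families were picked from the same libraries because of the rise of CACNA1I, so that gene is described without a test and is left out of every count of changed genes. The data comprised 3 libraries from cells given DMSO, the solvent, and 3 from cells given AS1842856, all after 48 h. AS1842856 acts on FOXO1, a forkhead transcription factor, and keeps it from binding DNA. The sample labels give a dose of 200 nM and the methods of the study a higher one, and this was not resolved here. The study describes the 3 libraries of each group as biological replicates of 1 cell line. Library totals ran from 15289500 to 22981832 counts, and replicate libraries differed by more than sampling noise (chi-square per degree of freedom from 2.32 to 3.12).

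A voltage-gated channel is a membrane protein whose pore opens when the voltage across the membrane changes. Opened calcium and sodium channels let positive charge into the cell and excite it, while opened potassium channels let potassium out and return the membrane towards rest. Each channel is built from a pore, made of a single large protein in calcium and sodium channels and of several smaller ones in potassium channels, together with auxiliary subunits that set its delivery to the membrane and its gating. The name "voltage-gated" covers only part of the KCN families: inward rectifiers (KCNJ), two-pore leak channels (KCNK) and the calcium- or sodium-activated KCNN and KCNT channels are opened mainly by other means, and KCNE and KCNMB genes encode auxiliary subunits. Outside nerve and muscle, potassium channels set the resting voltage of a cell and with it the drive for calcium entry.

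Of the 127 genes, 46 had no count in any of the 6 libraries and 18 had at most 3 counts in every library. A further 27 exceeded 3 counts somewhere but were removed by the filter on low counts, which lies at about 0.548 CPM (counts divided by library size after TMM scaling). The remaining 36 passed the filter, and 35 of them, all but CACNA1I, were tested. A count of 0 allows up to 3 counts per library, or 0.131 to 0.196 CPM at these depths. The genes at 0 included the cardiac potassium channels KCNQ1 and KCNH2, the muscle sodium channel SCN4A, the pain-fibre sodium channels SCN10A and SCN11A, and 7 of the 8 KCNA genes, with at most 1 count for KCNA7. The share detected differed between families. All 5 KCNE genes had counts, but 3 of the 4 SCN beta subunits and 5 of the 8 KCNH genes had none.

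**Figure D1:**
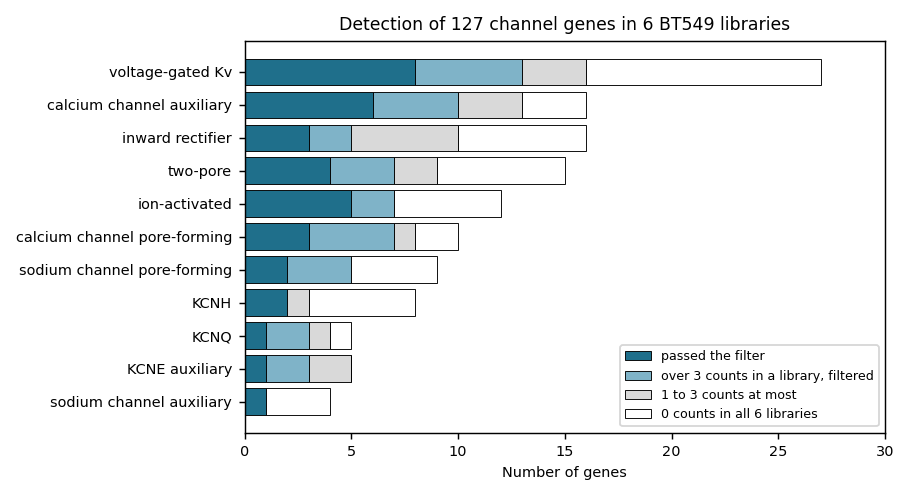
Number of channel genes (x axis) in each role group (y axis), split by how far they were detected in the 6 libraries. White marks the 46 genes at 0 in all libraries and dark blue the 36 that passed the filter, of which the 8 Kv genes are the largest block.

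The promoters of the members that moved most are shown here so that their sequences can be set beside the values that follow. Promoter sequences from RefSeq (GRCh38.p14) were matched by symbol for 90 of the 127 genes. Of the members whose log2 fold change was at least 2 in size, and CACNA1I, sequences were matched for CACNA1I, KCNS3 and SCN9A, while KCNS1 is named only. Each line gives the 250 bases before the annotated start, 5′ to 3′ on the strand of the gene, with every CG dinucleotide in capitals. They lie at chr22:39570503-39570752 on the plus strand for CACNA1I, chr2:17877597-17877846 on the plus strand for KCNS3 and chr2:166375945-166376194 on the minus strand for SCN9A.
CACNA1I: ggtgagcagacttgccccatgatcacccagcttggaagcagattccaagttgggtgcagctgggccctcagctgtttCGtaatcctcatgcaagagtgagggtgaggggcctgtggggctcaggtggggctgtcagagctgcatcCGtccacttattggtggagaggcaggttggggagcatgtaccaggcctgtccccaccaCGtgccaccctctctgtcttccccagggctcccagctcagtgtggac
KCNS3: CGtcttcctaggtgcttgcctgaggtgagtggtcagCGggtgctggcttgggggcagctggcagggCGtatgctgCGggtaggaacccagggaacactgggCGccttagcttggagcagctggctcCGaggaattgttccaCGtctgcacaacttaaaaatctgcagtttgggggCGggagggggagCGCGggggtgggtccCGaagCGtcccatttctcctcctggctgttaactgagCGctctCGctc
SCN9A: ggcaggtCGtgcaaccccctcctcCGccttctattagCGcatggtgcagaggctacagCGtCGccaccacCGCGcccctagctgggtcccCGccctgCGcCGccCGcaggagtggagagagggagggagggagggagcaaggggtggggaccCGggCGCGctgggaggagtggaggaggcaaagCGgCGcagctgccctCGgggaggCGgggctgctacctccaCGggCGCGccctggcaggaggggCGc
CACNA1I, which had no counts with DMSO, has 3 CG dinucleotides in these 250 bases, KCNS3 has 14 and SCN9A has 22. The RefSeq start is the GENCODE gene start for CACNA1I and KCNS3 and lies 57 bases from it for SCN9A. In the 300 bases from 250 before to 50 after the start, the counts of CG were 6, 19 and 28 in that order, where the median of all 35116 RefSeq promoters was 14.

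Across the family, promoters of the 25 matched genes that passed the filter had a median of 25 CG dinucleotides and 70.7% GC, and those of the 32 matched genes at 0 in all libraries had a median of 10 and 61.8%. The same 300 bases were searched on both strands for TGTTTAC, the core of a forkhead motif, and CTTTGAT, the core of a TCF/LEF motif, which do not overlap each other. Neither was present in CACNA1I, KCNS3 or SCN9A. The forkhead letters occurred in 1 of the 90 matched channel promoters (1.11%, SCN11A) and in 3.42% of all RefSeq promoters. The RefSeq start used for SCN11A lies 101383 bases from its GENCODE start. The TCF/LEF letters occurred in 2 of the 90 (2.22%, KCNK2 and KCNJ1) and in 2.62% of all. In KCNK2, which fell, the match lies 31 bases after the RefSeq start, itself 233 bases from the GENCODE start. These matches describe letters only. Channel genes entered the shares and medians with 1 promoter per symbol, whereas all RefSeq promoters entered as listed.

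Of the 35 tested channel genes, 22 passed the threshold of 0.05 on adjusted p (edgeR, quasi-likelihood), 8 of them higher and 14 lower with AS1842856. Over all 14338 genes tested, 56.0% were called, 27.6% higher and 28.4% lower. Among the calls, 15 had a log2 fold change of 1 or more in size, 5 higher and 10 lower, beside 10.6% of all genes tested. All treated libraries lay on the same side of all controls in 24 of the 35, beside 59.9% of all genes tested. The choice of the families used this contrast, so nothing is read from these shares. The median log2 fold change of the 35 was -0.19, beside 0.003 for all genes tested. Because 4 of the 35 passed the filter through the libraries of 1 group alone (such as KCNT2 through AS1842856, and SCN9A and KCNS1 through DMSO), neither the counts nor the median describe all 127. In deposited FPKM with a minimum mean of 0.5, limma called 12 channel genes, 7 higher and 5 lower, among only 17 tested. Nothing is read from that share either.

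**Figure D2:**
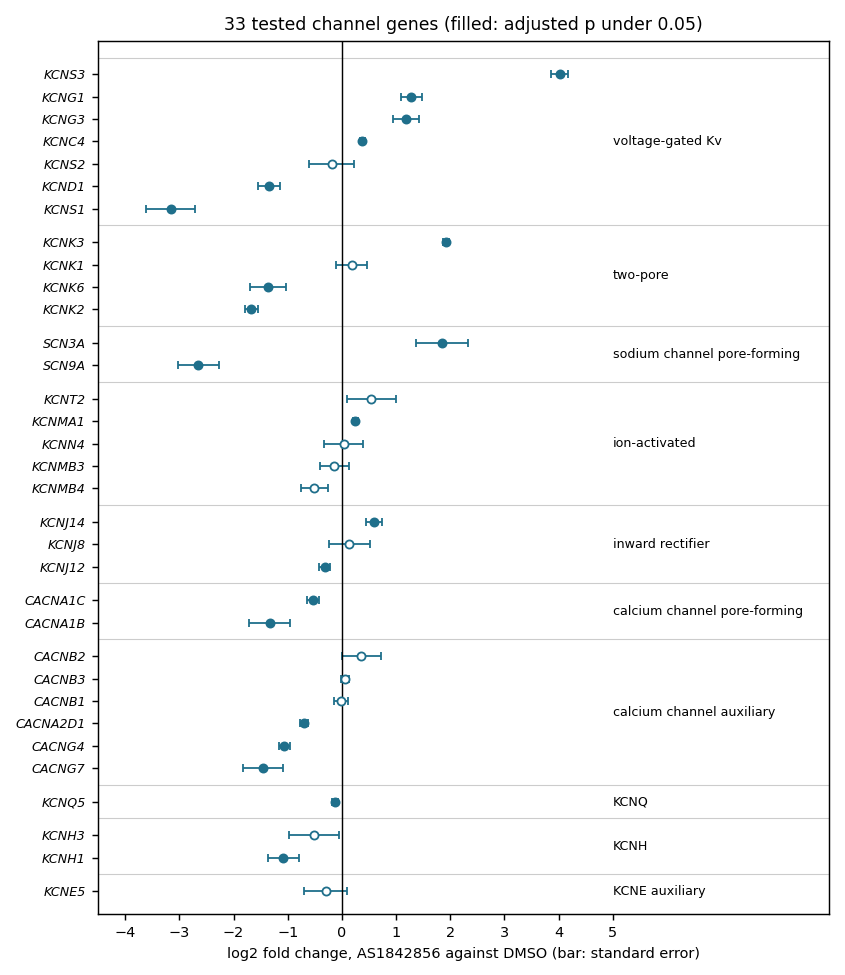
The log2 fold change of AS1842856 against DMSO (x axis) of 33 of the 35 tested channel genes (y axis), grouped by role, with the standard error as a bar. Filled points passed the adjusted threshold (8 to the right of 0 and 13 to the left), and KCNS3 at 4.02 and KCNS1 at -3.16 are the ends of the range.

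CACNA1I (ENSG00000100346, chromosome 22 from 39570753 to 39689737 on the plus strand, GRCh38) encodes Cav3.3, 1 of the 3 T-type calcium channels, which open at voltages close to rest. It was at 0 counts in all 3 DMSO libraries, and at 2.94, 1.93 and 2.52 CPM in AS1842856 replicates A, B and C. All treated libraries thus stood above all controls. Their mean of 2.46 CPM was about 15 times the limit of 3 counts per DMSO library (mean 0.165 CPM). FPKM corrects for annotated gene length, so levels can be compared between genes as far as that length holds. In this unit the treated cells reached 0.227 ± 0.047 (SD, n = 3), rank 22 of the 36 channel genes that passed the filter. The rise therefore ended below most channel genes that passed the filter, although most channel genes did not pass it.

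The other T-type genes were low or not detected in both groups. CACNA1G (Cav3.1) had 10, 6 and 8 counts with DMSO and 12, 13 and 8 with AS1842856, which overlap and stayed under the filter. CACNA1H (Cav3.2) was at 0 in all 6 libraries. Among the high-voltage-activated pores, the L-type gene CACNA1C (Cav1.2) had the highest level per length, and it was 17.0, 16.1 and 13.9 CPM with DMSO and 11.2, 11.1 and 10.4 with AS1842856. All treated libraries were below all controls, and CACNA1C fell by 0.53 on the log2 scale (SE 0.11, adjusted p = 5.08e-06), although limma on FPKM did not call it (adjusted p from 0.0693 to 0.081). With a mean of 0.567 FPKM it still exceeded CACNA1I in the treated cells.

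CACNA1B (Cav2.2), the N-type channel of nerve endings, was at 2.14, 0.977 and 1.29 CPM with DMSO and at 0.36, 0.526 and 0.897 with AS1842856. The groups did not overlap, but the lowest control stood close to the highest treated library. The log2 fold change was -1.33 (SE 0.38, adjusted p = 0.00129), and without DMSO replicate A it was -0.94 and no longer called (adjusted p = 0.0828). The remaining pores were near the limit of detection: CACNA1A (Cav2.1) had 0, 0 and 1 counts with DMSO and 3, 4 and 3 with AS1842856, CACNA1E (Cav2.3) had 2, 4 and 0 with DMSO and none with AS1842856, CACNA1S had 4 counts in a single treated library, CACNA1D had at most 1 count, and CACNA1F had none.

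Of the 6 auxiliary calcium channel genes tested, 3 fell and 3 were not called. CACNG4, a gamma subunit that also belongs to the TARP family of AMPA receptor partners, was the calcium channel gene with the highest level, 6.89 FPKM with DMSO. It was at 23.1, 23.6 and 23.7 CPM with DMSO and at 11.5, 10.4 and 11.9 with AS1842856. The controls were nearly identical and every treated library lay far below them, with a log2 fold change of -1.06 (SE 0.10, adjusted p = 2.92e-22). CACNG7, another TARP gene, was at 1.5, 1.69 and 1.72 CPM with DMSO and at 0.66, 0.613 and 0.505 with AS1842856, a log2 fold change of -1.45 (SE 0.37, adjusted p = 0.00031). Neither gene overlapped between groups. The neighbours of CACNG4 on chromosome 17 were not detected beyond 1 count (CACNG5 at 0, CACNG1 at most 1), and CACNG8 and CACNG6 beside CACNG7 on chromosome 19 had at most 7 and at most 1 counts.

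CACNA2D1, the alpha2delta subunit that raises the number of channels at the membrane and binds gabapentin, was at 36.2, 35.4 and 34.1 CPM with DMSO and at 23.6, 21.7 and 20 with AS1842856. Its treated libraries were all below the controls, with a log2 fold change of -0.70 (SE 0.08, adjusted p = 1.24e-16). Of the cytoplasmic beta subunits, which carry the pore to the membrane, CACNB1, CACNB2 and CACNB3 were tested and not called. CACNB4, under the filter, had 4, 1 and 6 counts with DMSO and 6, 12 and 10 with AS1842856. CACNB3, the most abundant of them, had means of 24.5 ± 1.35 and 25.7 ± 1.41 CPM (SD, n = 3), a log2 fold change of 0.06 (SE 0.08, adjusted p = 0.528). CACNB1 was at a log2 fold change of -0.01 (SE 0.13) and CACNB2 at 0.36 (SE 0.36). Summed over the 16 auxiliary genes, the level per length was 16.0 to 16.3 FPKM with DMSO and 10.6 to 11.1 with AS1842856. The sum of the 10 pore genes overlapped between groups (0.898 to 1.15 and 0.871 to 0.969). That sum includes CACNA1I, the gene the families were picked for, at 0 FPKM with DMSO and 0.271, 0.177 and 0.232 with AS1842856. The overlap is therefore not read as a lack of change in the other pores. The other tested pores, CACNA1C and CACNA1B, both fell.

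Only 2 of the 9 sodium channel pores passed the filter, and they moved in opposite directions. SCN9A (Nav1.7), a channel of sensory neurons, was at 2.64, 2.73 and 1.67 CPM with DMSO and at 0.54, 0.307 and 0.28 with AS1842856. Every treated library was below every control, and the log2 fold change was -2.65 (SE 0.38). SCN9A passed the filter through its DMSO libraries alone, so its test is not given, although it stays in the counts of calls. With no filter on low counts the log2 fold change was -2.66. SCN3A (Nav1.3), a channel of the embryonic brain, was at 0.0911, 0.781 and 0.108 CPM with DMSO and at 1.32, 1.09 and 0.785 with AS1842856. Here DMSO replicate B lay almost level with the lowest treated library, and the other controls lay far lower. SCN3A rose by 1.84 on the log2 scale (SE 0.48, adjusted p = 0.000507), and by 3.35 without DMSO replicate B, so the size of the rise depends on that library. In limma on log2(FPKM + 1) with no filter it was not called (adjusted p = 0.144). An antisense gene, AC019197.1, overlaps 9.91% of its exon bases and held 27 counts over the 6 libraries against 77 for SCN3A, and whether counting used strand is not given in the sources used here.

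Both genes lie in 1 cluster of sodium channel genes on chromosome 2, with SCN3A from 165087522 to 165204067, SCN2A from 165194993 to 165392310, SCN1A from 165984641 to 166149214 and SCN9A from 166195185 to 166376001. Between the gene that rose and the gene that fell, SCN2A had 2, 1 and 1 counts with DMSO and 2, 7 and 3 with AS1842856, and SCN1A had none. SCN8A (Nav1.6) was removed by the filter, and it had 7, 7 and 8 counts with DMSO and 1, 0 and 1 with AS1842856. It is named after its values were seen, so no test of it is given.

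Kv genes encode the classical voltage-gated potassium channels, whose subunits assemble into a shared pore. Of the 8 that passed the filter, 4 rose, 3 fell and KCNS2 was not called. The largest rise of any tested channel gene was that of KCNS3 (Kv9.3), at 1.23, 0.781 and 1.67 CPM with DMSO and 19.1, 21.7 and 20.1 with AS1842856. The lowest treated library was thus more than 10 times the highest control. The log2 fold change was 4.02 (SE 0.16, adjusted p = 1.98e-69), and KCNS3 went from 0.389 to 6.45 FPKM. KCNS3 is a silent subunit: it forms no channel alone and joins other Kv subunits, whose gating it changes.

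The related silent subunits KCNG1 (Kv6.1) and KCNG3 (Kv6.3) also rose. KCNG1 was at 2.55, 1.95 and 2.85 CPM with DMSO and at 5.28, 7.27 and 5.38 with AS1842856, a log2 fold change of 1.28 (SE 0.19, adjusted p = 2.51e-10). KCNG3 was at 1.23, 1.63 and 2.10 CPM with DMSO and at 3.90, 3.42 and 3.87 with AS1842856, a log2 fold change of 1.18 (SE 0.24, adjusted p = 5.46e-06). In both genes all treated libraries were above all controls. KCNS1 (Kv9.1), also silent, moved the other way, from 2, 2.47 and 1.29 CPM with DMSO to 0.24, 0.35 and 0 with AS1842856. Its log2 fold change was -3.16 (SE 0.45), or -3.96 without AS1842856 replicate B. It too passed the filter through its DMSO libraries alone, so its test is not given, although it stays in the counts of calls. With no filter on low counts the log2 fold change of KCNS1 was -3.18. KCNS2 (Kv9.2) overlapped between groups, with a log2 fold change of -0.19 (SE 0.41, adjusted p = 0.718).

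Summed over KCNS1, KCNS2, KCNS3, KCNG1 and KCNG3, the level of these silent subunits ran from 1.74 to 1.98 FPKM in DMSO libraries and from 8.29 to 9.34 in AS1842856 libraries. The treated libraries were thus all above the controls, and KCNS3 supplied most of the summed level in them.

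The Kv gene with the most counts was KCNC4 (Kv3.4), a fast-inactivating channel, at 58.1, 62.2 and 60.8 CPM with DMSO and 81.6, 76.1 and 78.3 with AS1842856. The groups were narrow and apart, and the gene rose by 0.38 on the log2 scale (SE 0.05, adjusted p = 8.41e-12). KCND1 (Kv4.1), which carries transient A-type current, was at 5.15, 5.01 and 6.03 CPM with DMSO and at 1.74, 1.93 and 2.69 with AS1842856. Its treated libraries were all below the controls, with a log2 fold change of -1.35 (SE 0.20, adjusted p = 5.05e-10). KCNIP3, a gene outside the symbol families whose product binds Kv4 channels, was lower as well, at 2.55, 2.47 and 1.67 CPM with DMSO and 1.32, 0.569 and 0.841 with AS1842856 (log2 fold change -1.33, SE 0.32, adjusted p = 0.000144).

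Of the KCNQ, KCNH and KCNE families, 4 genes were tested. KCNQ5 (Kv7.5), a subunit of the M-type current, was among the 3 channel genes with the highest levels with DMSO, at 6.99 ± 0.336 FPKM (SD, n = 3), and at 6.40 with AS1842856. Its libraries, at 56.1, 51.9 and 51.7 CPM with DMSO and 51.2, 46.4 and 48.7 with AS1842856, did not overlap but lay close together. The log2 fold change of -0.13 (SE 0.06, adjusted p = 0.0423) was not called by DESeq2 (adjusted p = 0.167), by limma on FPKM or without DMSO replicate A, AS1842856 replicate B or AS1842856 replicate C (0.228, 0.239 and 0.0736). KCNH1 (EAG1), a channel known for its expression in tumours, was at 3.10, 2.80 and 1.51 CPM with DMSO and at 0.96, 1.62 and 0.841 with AS1842856. DMSO replicate C lay below AS1842856 replicate B, so the groups overlapped, and the log2 fold change was -1.08 (SE 0.29, adjusted p = 0.000696), which limma on log2(FPKM + 1) with no filter did not call (adjusted p = 0.194). KCNH3 (-0.52, SE 0.46, adjusted p = 0.347) and KCNE5 (-0.30, SE 0.39, adjusted p = 0.544) were not called, and KCNE5 shares 5.30% of its exon bases with the far more abundant ACSL4 on the same strand.

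Of the tested genes for channels opened by intracellular ions, KCNMA1 alone was called, and the others had low counts that limit detection. KCNMA1 (BK), which opens with calcium and voltage together, had the most counts of them, at 70.7, 75.5 and 71.8 CPM with DMSO and 90.2, 82.5 and 87.2 with AS1842856. All treated libraries were above the controls, and KCNMA1 rose by 0.25 on the log2 scale (SE 0.05, adjusted p = 1.64e-06). Its auxiliary subunit KCNMB4 had means of 2.75 ± 0.415 and 1.92 ± 0.211 CPM (SD, n = 3) and was not called (log2 fold change -0.51, SE 0.25, adjusted p = 0.0708). The groups of KCNMB4 did not overlap, and in edgeR without DMSO replicate A it was called (-0.64, adjusted p = 0.0421). KCNMB3 and the calcium-activated KCNN4 were not called either, at -0.14 (SE 0.27) and 0.03 (SE 0.36) on the log2 scale. Of the exon bases of KCNMB3, 37.9% are shared with PIK3CA on the opposite strand. The sodium-activated KCNT2 was at 0.547, 0.456 and 0.538 CPM with DMSO and 1.08, 0.569 and 0.673 with AS1842856, with no overlap. Its log2 fold change was 0.54 (SE 0.45). KCNT2 passed the filter through its AS1842856 libraries alone, so its test is not given, although it stays among the genes tested.

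Inward rectifiers pass potassium most easily near the resting voltage and hold it there. KCNJ12 (Kir2.2), the most abundant, was at 18.4, 14.1 and 17.0 CPM with DMSO and 13.4, 13.5 and 13.0 with AS1842856. DMSO replicate B lay just above the treated libraries, and the log2 fold change of -0.32 (SE 0.10, adjusted p = 0.00382) was not called without DMSO replicate A (-0.24, adjusted p = 0.0708). KCNJ12 has a nearly identical copy, KCNJ18, listed at 0 in all libraries, so how reads were divided between them is uncertain. KCNJ14 (Kir2.4) was at 5.37, 5.79 and 4.63 CPM with DMSO and 8.82, 7.75 and 7.23 with AS1842856. Its treated libraries were all higher, with a log2 fold change of 0.59 (SE 0.15, adjusted p = 0.000178). It shares 8.06% of its exon bases with GRWD1 on the same strand, which rose by 0.15, so its counts are uncertain. KCNJ8, a pore of ATP-sensitive channels, was not called (0.14, SE 0.37, adjusted p = 0.775).

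KCNJ15 (Kir4.2), under the filter, had 2, 0 and 1 counts with DMSO and 9, 10 and 8 with AS1842856. Because it is named after its values were seen, no test of it is given.

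The two-pore channels, which carry the background leak of potassium, held both the highest level and opposite changes. KCNK3 (TASK-1), an acid-sensitive channel, was at 37.3, 39.0 and 45.3 CPM with DMSO and at 144, 161 and 153 with AS1842856. Every treated library was more than 3 times the highest control, with a log2 fold change of 1.92 (SE 0.05, adjusted p = 9.22e-78). KCNK3 went from 6.47 ± 0.67 to 24.4 ± 1.31 FPKM (SD, n = 3), from rank 3 among channel genes to rank 1. It made up 11.6% to 13.8% of the summed FPKM of all 127 genes in DMSO libraries and 34.8% to 37.3% in AS1842856 libraries.

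KCNK2 (TREK-1), a channel opened by stretch and lipids, was at 17.9, 22.7 and 19.7 CPM with DMSO and at 4.5, 8.19 and 5.72 with AS1842856. The treated libraries were spread but all below the controls, with a log2 fold change of -1.67 (SE 0.12, adjusted p = 2.52e-21). KCNK6 (TWIK-2) was at 2, 2.73 and 1.72 CPM with DMSO and 0.48, 1.05 and 0.897 with AS1842856, a log2 fold change of -1.36 (SE 0.33, adjusted p = 0.000164), again with no overlap, but limma on log2(FPKM + 1) with no filter did not call it (adjusted p = 0.0611). KCNK1 (TWIK-1) overlapped between groups and was not called (0.18, SE 0.28, adjusted p = 0.604). Summed over these 4 genes, the level ran from 11.2 to 13.2 FPKM with DMSO and from 24.9 to 28.5 with AS1842856. In bulk RNA, fewer cells with a transcript and less of it per cell cannot be told apart.

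**Figure D3:**
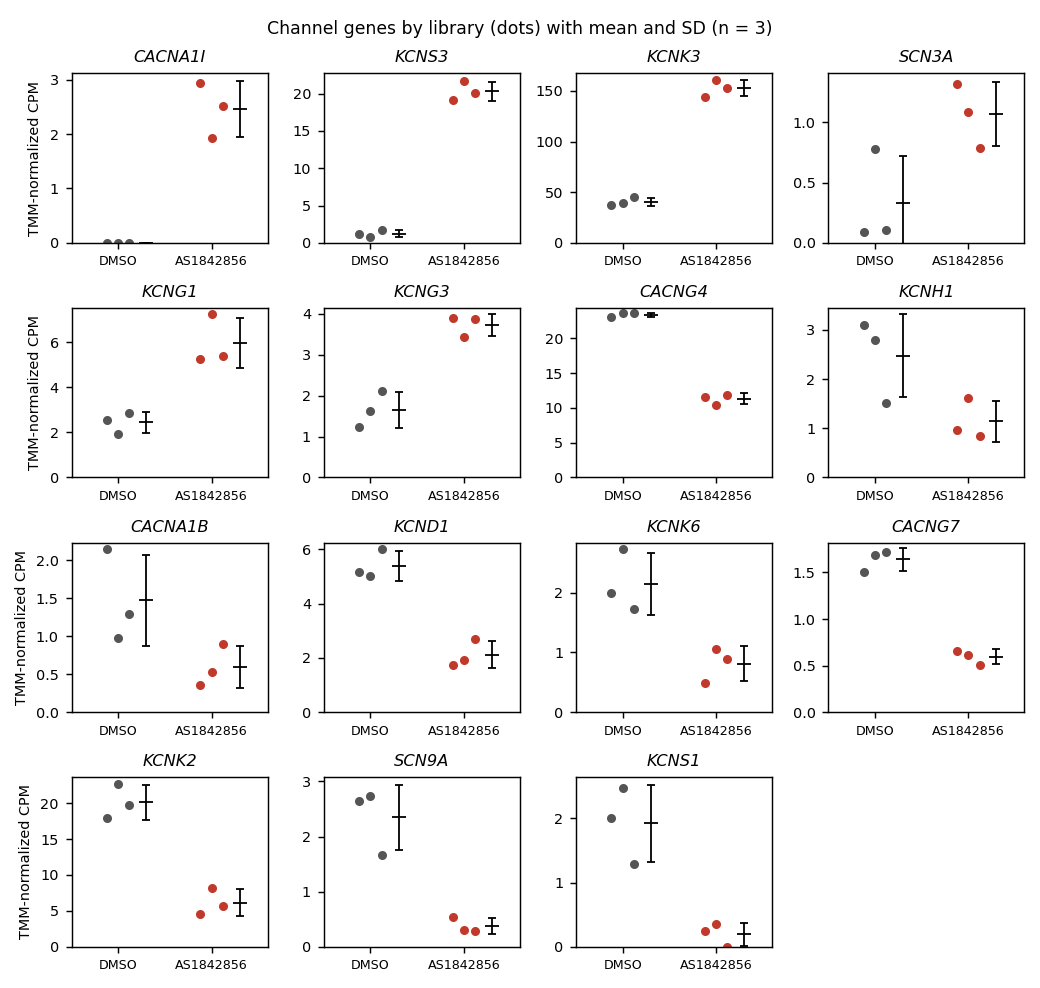
TMM-normalized CPM (y axes, each from 0) by group (x axes) for CACNA1I and 14 of the 15 tested channel genes called with a log2 fold change of 1 or more in size. Dots are libraries A, B and C from left to right and bars the mean ± SD (n = 3); the dots of KCNH1 overlap between groups, and the lowest treated value of SCN3A (0.785) lies just above the highest control (0.781).

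Compared by level, 11 channel genes had a mean above 1 FPKM with DMSO, led by KCNQ5, CACNG4, KCNK3 and KCNK2 at 6.99, 6.89, 6.47 and 5.11. The deposited FPKM divides by all annotated exon bases of a gene (35644 for KCNMA1, 25042 for KCNC4 and 7570 for KCNQ5), transcribed here or not. Ranks, sums and shares of FPKM therefore depend on that length. In CPM, which takes no account of length, KCNMA1 (72.7) and KCNC4 (60.4) stood above KCNQ5 (53.2) with DMSO. KCNQ5, CACNG4 and KCNK3 differed by less than the SD of KCNK3 (0.67), so their order is not settled. With AS1842856 KCNK3 led at 24.4, and KCNS3 and KCNQ5 followed at 6.45 and 6.40, which do not differ beyond their spread. The summed level of all 127 genes ran from 51.4 to 52.5 FPKM with DMSO and from 66.2 to 68.9 with AS1842856. The 15 two-pore genes summed to between 11.4 and 13.4 FPKM with DMSO and between 25 and 28.7 with AS1842856, and the 27 Kv genes to between 5.58 and 6.16 and between 12.2 and 13.5. Inward rectifiers overlapped between groups (4.33 to 4.77 and 4.30 to 5.16).

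**Figure D4:**
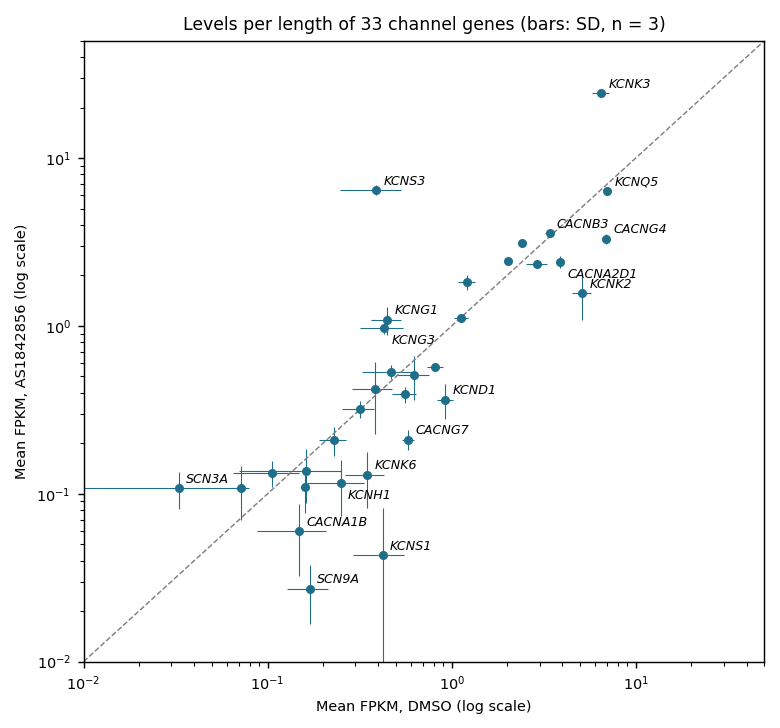
Mean FPKM with AS1842856 (y axis) against DMSO (x axis) of 33 of the 35 tested channel genes, both on log scales, with SD bars (n = 3; bars that reach below 0.01 are cut at the axis). The dashed line marks equal levels; KCNS3 and KCNK3 lie farthest above it, and KCNS1 and SCN9A far below.

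Genes around these channels, outside the symbol families, were examined as lists chosen with earlier results of these data known. Of 19 other voltage-gated and related channels 6 were tested, and 2 rose and 1 fell, beside 56.0% called over all genes tested. HCN2, a pacemaker channel that opens on hyperpolarization, was at 2.82, 2.34 and 2.26 CPM with DMSO and 4.8, 5.04 and 4.88 with AS1842856, above the controls in every library (log2 fold change 0.98, SE 0.20, adjusted p = 4.24e-06). CATSPER2 fell by 0.80 on the log2 scale (SE 0.36, adjusted p = 0.0465), a call lost in edgeR with 1 library left out (adjusted p up to 0.255). Of 28 channel-associated proteins 14 were tested, and 2 rose and 3 fell, beside the same 56.0%. Nothing is read from these shares. UNC80, part of the sodium leak channel complex, went from 0.273, 0.13 and 0.215 CPM to 1.32, 1.84 and 2.52. It passed the filter through its AS1842856 libraries alone, so its test is not given, although it is 1 of the 2 that rose. ABCC9, the regulatory subunit of ATP-sensitive potassium channels, rose by 0.97 (SE 0.17). FGF12, which binds sodium channels, fell by 0.88 on the log2 scale (SE 0.10), beside KCNIP3.

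Of 34 genes of calcium entry, stores and removal 25 were tested, 11 higher and 8 lower, beside 27.6% and 28.4% over all genes tested. ATP2B2, a plasma membrane calcium pump, was at 15.9, 13.2 and 11.9 CPM with DMSO and 0.84, 0.438 and 0.785 with AS1842856. Its treated libraries were all near the limit of the filter, a log2 fold change of -4.36 (SE 0.20, adjusted p = 5.02e-59). The more abundant pumps ATP2B4 and ATP2B1 fell by 0.35 (SE 0.03) and 0.28 (SE 0.04). The Golgi pump ATP2C2 fell by 1.32 on the log2 scale (SE 0.42), a call lost in edgeR with 1 library left out (adjusted p up to 0.0614). MICU3, a regulator of the mitochondrial calcium uniporter, rose by 1.20 (SE 0.09). Of 14 subunits of the sodium-potassium pump 5 were tested, with 2 higher and 2 lower, and nothing is read from the shares of either list. The beta subunit ATP1B3 rose by 0.20 (SE 0.04), and the regulators FXYD7 and FXYD5 fell by 1.44 (SE 0.10) and 0.47 (SE 0.03) on the log2 scale.

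Many of these channels are known from nerve cells, so marker genes were examined beside them. All 8 markers of a mesenchymal, basal-like breast line, such as VIM, FN1 and CD44, passed the filter, and 3 of them rose (FN1, SNAI2 and ZEB1) and 5 fell. Of 9 luminal markers 5 were tested: KRT19 and GATA3 rose, and KRT8 (log2 fold change -3.31), KRT18 (-3.30) and FOXA1 (-1.11) fell. FOXA1 lost its call in edgeR with 1 library left out (adjusted p up to 0.087). CDH1 and ESR1 were at 3 counts or lower in every library. The summed level of the 8 was 889 to 905 FPKM with DMSO and 698 to 705 with AS1842856, and that of the luminal markers was 32.0 to 33.4 and 22.4 to 24.6. Of 12 neuronal markers 7 were tested, with 4 higher, among them SNAP25 (log2 fold change 2.02), and GAD1 lower (-1.05). The 4 include SLC17A7, which passed the filter through its AS1842856 libraries alone (0.501, 0.391 and 0.269 CPM with DMSO). They also include SYP, whose call was lost in edgeR with 1 library left out (adjusted p up to 0.355). The summed level of the 12 was 3.77 to 4.16 FPKM with DMSO and 8.48 to 9.92 with AS1842856. ELAVL4, NEFL and NEFM were at 0 in all libraries, and RBFOX3 and ELAVL3 at 3 counts or lower. Of 9 muscle markers 6 were at 0 and none passed the filter. Blood and endothelial markers summed to 0.249 to 0.409 and 0.521 to 0.95 FPKM, with CD3E, HBB and CDH5 at 0 and PTPRC higher (log2 fold change 1.48). Over all genes tested 56.0% were called, 27.6% higher and 28.4% lower, and nothing is read from the shares of these marker lists. The part of the marker shifts in the channel values was not tested.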

How the data were processed

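Total RNA of BT549 cells given DMSO or AS1842856 for 48 h was sequenced (3 libraries each), and groups and replicate letters were taken from the labels. The authors aligned the reads by STAR, then deposited unnormalized counts for every gene and, per library, FPKM, which is scaled to gene length and depth. The submitters' notes name CASAVA, Bowtie 0.12.2 and the builds GRCh38 and hg38. The counting tool, annotation and use of strand are not given in the sources used here. All 58735 identifiers matched GENCODE release 29 (Ensembl 94, GRCh38), which gave symbols, positions and overlaps.

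Members were selected by symbol. The members and gene lists were chosen with earlier results of these data known. Counts were analysed with edgeR 4.0.16 (R 4.3.3): filterByExpr (minimum count 10, minimum total 15) left 14338 genes, TMM factors ran from 0.995 to 1.01, and glmQLFit (robust) with glmQLFTest compared the groups without a block. P-values were adjusted over all genes tested (Benjamini-Hochberg, 0.05), and the SE is the log2 fold change divided by the square root of F. The common biological coefficient of variation was 0.0374. Limits for 0 counts (3 counts per library) reflect counting error alone, as the reads carry no molecular identifiers and need not be independent molecules. Levels between genes were compared in FPKM, where 76 members are listed, and the rest were taken as 0 in sums. For some genes counts or CPM, which take no account of length, were compared as well. Named were CACNA1I, members called with a log2 fold change of 1 or more in size, the member with the highest FPKM of each role group, all CACNA1 genes, and of each list the 2 largest called increases and decreases. Alternatives were DESeq2 1.42.0, other scalings and filters, limma 3.58.1 on FPKM, a replicate block and each library left out. The tests were also run on simulated counts, with a common dispersion for all genes and changes set only in genes of higher counts. That check does not cover the genes with few counts. Some single genes enter the counts and sums but are not reported here.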

Additional observations from a re-analysis of the deposited data

How the results depend on the processing

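Under 15 other settings every channel gene called in common with the reported fit kept its direction, and the genes given with values that were not called had less settled signs: that of CACNB1, KCNJ8, KCNN4, KCNMB3 and KCNS2 turned with 1 library left out (ranges -0.06 to 0.06, -0.23 to 0.39, -0.12 to 0.15, -0.29 to 0.02 and -0.44 to 0.30). The 22 calls were 20 to 23 with each library left out, the fewest without DMSO replicate A. Restricting the fit to genes with a mean of at least 50 counts left 16 channel genes tested, with 14 called (7 higher, 7 lower), 7 of them by at least 1 on the log2 scale, a median log2 fold change of 0.02, and 3 channel-associated proteins called. limma on log2(FPKM + 1) with a minimum mean of 0.5 FPKM tested 17, with 12 called, 3 by at least 1, a median of -0.003 and 2 channel-associated proteins called. With log2(FPKM + 0.1) these values were 12, 7, -0.004 and 2, and on log2(FPKM + 1) with no filter 14, 3 and 0.003, over 75 channel genes, where CACNA1B, KCNJ12 and KCNMA1 also lost their calls (adjusted p = 0.201, 0.0981 and 0.0519). The medians with DESeq2 (-0.024) and with no filter on low counts (-0.019) cover 80 channel genes. These settings test other sets of genes, and what else moved the values was not tested. Over all genes tested, the fit with a mean of at least 50 counts called 7293. The limma fits called 6702, 6684 and 6453 in the order given. Nothing is read from the share of channel genes called in any of them. The replicate letters were not found to pair the libraries (correlations of deviations 0.042, -0.012 and -0.003 for A, B and C), and a replicate block gave 21 calls (8 higher, 13 lower), with KCNQ5 lost (adjusted p = 0.0618). Genes near 0.548 CPM rest on about 10 counts per library, which limits what can be detected.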
